A study of Mus musculus with 4 samples.

Results

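The cells described here were adipose progenitors of old mice that carried transcripts of Fgf10, Enpp6 and Mrap, genes found in progenitors committed to the fat cell lineage. They were chosen cell by cell from unique molecular identifiers (UMIs, each standing for 1 captured transcript). A member had at least 2 UMIs of Pdgfra, the surface receptor of adipose progenitors, and at least 2 UMIs of Fgf10, Enpp6 and Mrap together. It had at most 1 UMI of Ptprc (CD45, leukocytes), at most 2 of Upk3b and Msln together (mesothelial cells), at most 4 of Cxcl13 and under 10 of Mzb1 (plasma cells). Cells with over 2 UMIs of Pi16 and Dpp4, genes of the earliest interstitial progenitors, or over 4 of Il6 and Ptx3, genes of an inflammatory state, were left out. The rule found 434 cells among 14982 cells kept from 4 libraries, and 3610 cells passed the same rule without its last 3 conditions. Those 3610 cells are called progenitors below, and those of them that are not members are the other progenitors.

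All libraries came from the stromal vascular fraction of gonadal adipose tissue of 18-month-old male p16-CreERT2/R26-LSL-tdTomato mice given tamoxifen. In such mice tamoxifen activates a recombinase made from the p16 (Cdkn2a) promoter, which turns on the red protein tdTomato for good, so Tom+ stands for p16-high cells, past activity included. Cells were sorted by CD45, the leukocyte surface protein, into a CD45- and a CD45+ pair, and each pair into Tom+ and Tom-. This gave 4 groups with 1 library each of 64083756 to 139397501 UMIs, and the sources used here do not say how many animals went into each. With 1 library per group there was no replicate check and no test between groups. All comparisons are between libraries, and all intervals are 95% intervals that cover counting error only. The question put to the members is how their transcripts differed between Tom+ and Tom- cells and from those of other progenitors.

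White adipose tissue makes new fat cells from Pdgfra+ progenitors, which pass from Pi16+ interstitial cells to preadipocytes that switch on Pparg and lipid-handling genes. Fgf10 is a secreted growth factor that signals through FGF receptors and acts in the development of white fat. Enpp6 is a choline-specific phosphodiesterase that cuts lysophospholipids and glycerophosphocholine. Mrap is a small membrane protein that brings the corticotropin receptor Mc2r to the cell surface and rises during fat cell differentiation.

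Before any result, 3 features of the libraries bear on what follows. The CD45 labels did not separate leukocytes. Cells with at least 2 UMIs of Ptprc and no Pdgfra made up 64.1% and 30.9% of kept cells in the Tom+ and Tom- libraries labelled CD45-, and 65.6% and 35.5% in those labelled CD45+. Members occurred in all 4 libraries, so the CD45- and CD45+ pairs served as separate looks at the Tom+ and Tom- labels, and each library is named by its label. The libraries shared between 1 and 21 kept cell barcodes per pair of libraries, 3 members carried a shared barcode, and no shared barcode belonged to a member in both libraries. In members, immunoglobulin transcripts took 1.88% and 1.22% of UMIs in the CD45- and CD45+ Tom+ libraries against 0.120% and 0.119% in the Tom- libraries.

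The tdTomato transcript followed the Tom labels. In members it reached 462 CPM (the share of all summed UMIs that a gene takes, on the usual CPM scale) in CD45- Tom+ and 421 CPM in CD45+ Tom+, against 11.9 CPM in CD45- Tom- and 10.4 CPM in CD45+ Tom-. Of the Tom+ members, 84.8% and 81.8% held at least 1 tdTomato UMI. Cdkn2a itself, the gene that drives the reporter, was near the limit of detection. It gave 5 UMIs in CD45- Tom+ (5.91 CPM), 16 in CD45- Tom- (3.52 CPM), 3 in CD45+ Tom+ (9.95 CPM) and 20 in CD45+ Tom- (3.99 CPM). The log2 ratio of Tom+ to Tom- for Cdkn2a was 0.75 (-1.05 to 2.26) in the CD45- pair and 1.32 (-1.08 to 3.07) in the CD45+ pair, so no difference was detectable at this depth.

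The promoters of the genes that define the members are shown to give their position, from the RefSeq table of build GRCm38.p6. Each run is the 250 bases before the RefSeq start on the plus strand, in lower case, with no motif marked. The Fgf10 window, chr13:118714449-118714698, lies inside the longer GENCODE gene model (chromosome 13, 118669791 to 118792115, plus strand). The Enpp6 window, chr8:46986637-46986886, ends just before the gene (chromosome 8, 46986887 to 47096762, plus strand). Mrap lies on chromosome 16 from 90738207 to 90749785 on the plus strand.
Fgf10: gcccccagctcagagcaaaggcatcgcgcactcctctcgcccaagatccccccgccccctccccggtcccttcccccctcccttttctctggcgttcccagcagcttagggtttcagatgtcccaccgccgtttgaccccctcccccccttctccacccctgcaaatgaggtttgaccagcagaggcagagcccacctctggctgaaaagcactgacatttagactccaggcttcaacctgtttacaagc
Enpp6: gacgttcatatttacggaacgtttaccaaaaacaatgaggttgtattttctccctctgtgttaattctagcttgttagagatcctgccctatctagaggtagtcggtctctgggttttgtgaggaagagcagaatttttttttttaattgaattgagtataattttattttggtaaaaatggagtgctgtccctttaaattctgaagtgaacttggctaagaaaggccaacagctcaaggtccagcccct

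Members were a minority of progenitors in every library, and they took a smaller share of all kept cells in Tom+ than in Tom- libraries. They numbered 33 of 4145 kept cells in CD45- Tom+ (0.796%, exact binomial interval 0.549 to 1.12), 192 of 4038 in CD45- Tom- (4.75%, 4.12 to 5.46), 11 of 1981 in CD45+ Tom+ (0.555%, 0.278 to 0.991) and 198 of 4818 in CD45+ Tom- (4.11%, 3.57 to 4.71). Progenitors as a whole were also fewer there, at 6.44% and 6.31% of kept cells in the Tom+ libraries against 38.6% and 34.5% in the Tom- libraries. The sort for tdTomato can set both shares. Among progenitors the member share was 12.4% (8.66 to 16.9) in CD45- Tom+, 12.3% (10.7 to 14.1) in CD45- Tom-, 8.80% (4.48 to 15.2) in CD45+ Tom+ and 11.9% (10.4 to 13.6) in CD45+ Tom-. These 4 intervals overlapped, so no difference in the share of progenitors was detectable at this depth. With each cell thinned to 5000 UMIs the share was 4.39% in CD45- Tom+ against 6.93% in CD45- Tom-. The cells with none of the 3 programmes took more of the progenitors in the Tom+ libraries, 41.2% and 57.6%, than in the Tom- libraries, 28.4% and 25.0%.

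**Figure D1:**
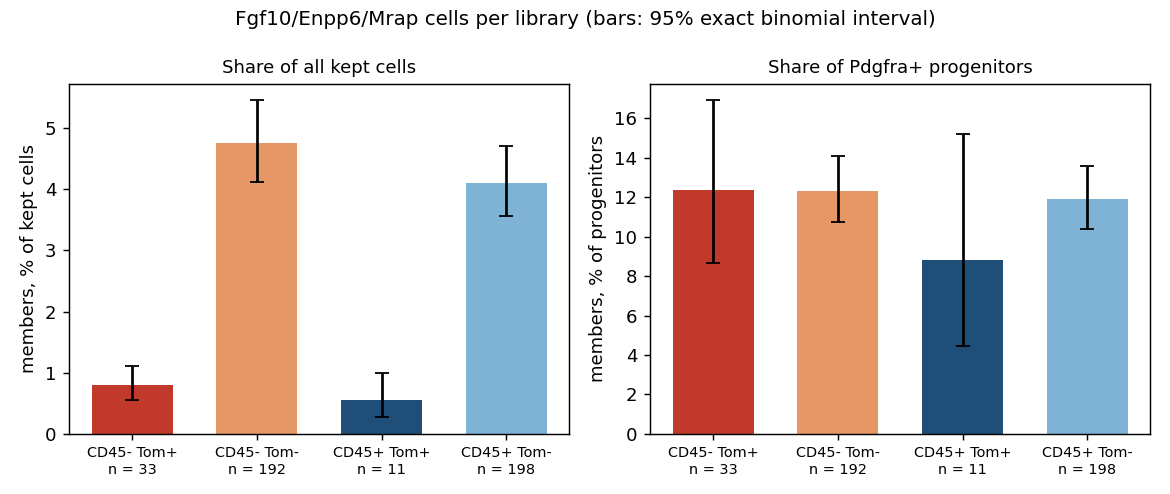
Members as a percentage of all kept cells (left) and of progenitors (right) in each library, with exact binomial 95% intervals as error bars and the number of members under each bar. The Tom+ libraries hold 0.796% and 0.555% of kept cells against 4.75% and 4.11% in the Tom- libraries, while the 4 intervals on the right overlap.

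The depth behind the values differed mostly through the number of cells. Members had median UMI counts of 23060, 21426.5, 27076 and 23629.5 per cell, with the CD45- pair first and Tom+ before Tom- in each pair, the order used for all runs of 4 values below. Summed over members these gave 845912, 4548427, 301401 and 5008821 UMIs. The cells with none of the 3 programmes were shallower, with medians of 19924, 16356, 20474.5 and 17774 UMIs. A deeper cell reaches 2 UMIs more easily, and the part of depth in who became a member was not tested.

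The 3 genes that define the members were only partly found together. Of the 434 members, 69 held Fgf10 alone, 53 Enpp6 alone and 42 Mrap alone, 67 held Fgf10 and Enpp6, 84 Fgf10 and Mrap, 51 Enpp6 and Mrap, and 68 all 3. The median member had 4 UMIs of the 3 genes and the highest 66. At the threshold stood 129 members with exactly 2 UMIs, while 269 cells with 1 UMI and 770 with none lay outside. The limit on Il6 and Ptx3 also fell within a spread of cells, with 36 members at 4 UMIs and 34 cells at 5 UMIs outside.

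Levels of the defining genes are a description, since they chose the cells. Fgf10 stood at 99.3 CPM in CD45- Tom+, 126 in CD45- Tom-, 123 in CD45+ Tom+ and 109 in CD45+ Tom- members. These levels were close together, and Fgf10 was seen in 65.2% to 81.8% of members. Enpp6 stood at 48.5, 96.3, 6.64 and 87.0 CPM in the same order. Its level in CD45+ Tom+ rests on 2 UMIs from 2 of 11 cells, so members of that library were chosen almost wholly by Fgf10 and Mrap. Mrap was even, at 69.7, 64.4, 49.8 and 64.1 CPM. In leukocytes of the same libraries, which should lack these genes, at most 0.584% of cells held an Fgf10 UMI, at most 0.847% an Enpp6 UMI and at most 0.721% an Mrap UMI, at median depths of 12238 to 20832 UMIs. Pdgfra, also a rule gene, was at 461 to 519 CPM in members.

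The label of committed preadipocyte is set beside genes the rule did not use, as a description and not as an independent check. The members and gene lists were chosen with earlier results of these data known. The other progenitors also hold the cells that the rule set apart by Pi16, Dpp4, Il6 and Ptx3. Pparg, the master regulator of fat cell differentiation, reached 43.7 CPM in CD45- Tom+ members, 40.5 in CD45- Tom-, 26.5 in CD45+ Tom+ and 37.1 in CD45+ Tom-, against 15.6, 19.5, 14.2 and 21.0 CPM in the other progenitors of those libraries. Pparg was thus higher in members in each library, by log2 ratios of 1.48, 1.05, 0.90 and 0.82, although the interval in CD45+ Tom+ (-0.40 to 2.01) included 0. It stayed below the mean of 50 CPM that the comparison of all genes required. Adipocyte genes were nearly absent. Adipoq, the hormone made by mature fat cells, gave no UMI in members of 3 libraries and 0.399 CPM in CD45+ Tom-, and the 8 markers of adipocytes summed to 2.36 to 42.7 CPM. Icam1, a surface marker used for committed preadipocytes, was not higher in members, with log2 ratios of -0.08 to -0.22. Pparg thus went with the preadipocyte label and Icam1 did not. Lipid genes described below were mixed. Fabp4, Cd36, Lpl and Plin2 were higher in members of all 4 libraries, while Acly was lower. The preadipocyte genes Gpc3 and Cd9 and the factor Cebpd were also lower in all 4. Lpl and Fabp4 differed least between members and the cells set apart by Il6 and Ptx3.

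Against the other progenitors of the same library, members carried more transcripts for fatty acid handling and for the basement membrane. Of 2998 genes compared, 4 were at least 2-fold higher in members in all 4 libraries (0.133%) and 7 at least 2-fold lower (0.233%). Members were chosen from these same transcriptomes, so the comparison is a description. It holds cells of the other classes that were set apart by Pi16, Dpp4, Il6 and Ptx3, and each value below is a ratio of CPM.

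The higher genes included Fabp4, Cd36 and Col18a1. Fabp4, a carrier of fatty acids inside the cell and a target of Pparg, stood at 2064 CPM in CD45- Tom+ members, 1941 in CD45- Tom-, 2860 in CD45+ Tom+ and 2259 in CD45+ Tom-, against 752, 700, 971 and 732 CPM in the other progenitors. All 4 member values lay above all 4 values of the other progenitors, and the log2 ratios were 1.46, 1.47, 1.56 and 1.63. In CD45+ Tom+, 66.5% of the Fabp4 UMIs came from 1 of the 11 members, so the ratio there rests mostly on that cell. The ratios to other progenitors were not recomputed without the top cell. Cd36, which takes up fatty acids at the surface, stood at 252, 326, 319 and 344 CPM in members and 110, 84.2, 103 and 76.2 CPM in the others. Its log2 ratios ran from 1.20 (0.97 to 1.42) in CD45- Tom+ to 2.17 (2.09 to 2.26) in CD45+ Tom-. Col18a1, a basement membrane collagen, stood at 248, 265, 292 and 287 CPM in members against 105, 114, 99.9 and 120 CPM.

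Fabp4 and Cd36 are also genes of macrophages, and macrophage markers were present in members at low levels. The 13 markers of macrophages summed to 462 CPM in CD45- Tom+, 166 in CD45- Tom-, 216 in CD45+ Tom+ and 223 in CD45+ Tom-, with 1 marker at 0 in CD45+ Tom+ and none at 0 elsewhere. In the other progenitors of those libraries they summed to 294, 208, 216 and 196 CPM in the same order. The part of free leukocyte RNA in these values was not tested.

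**Figure D2:**
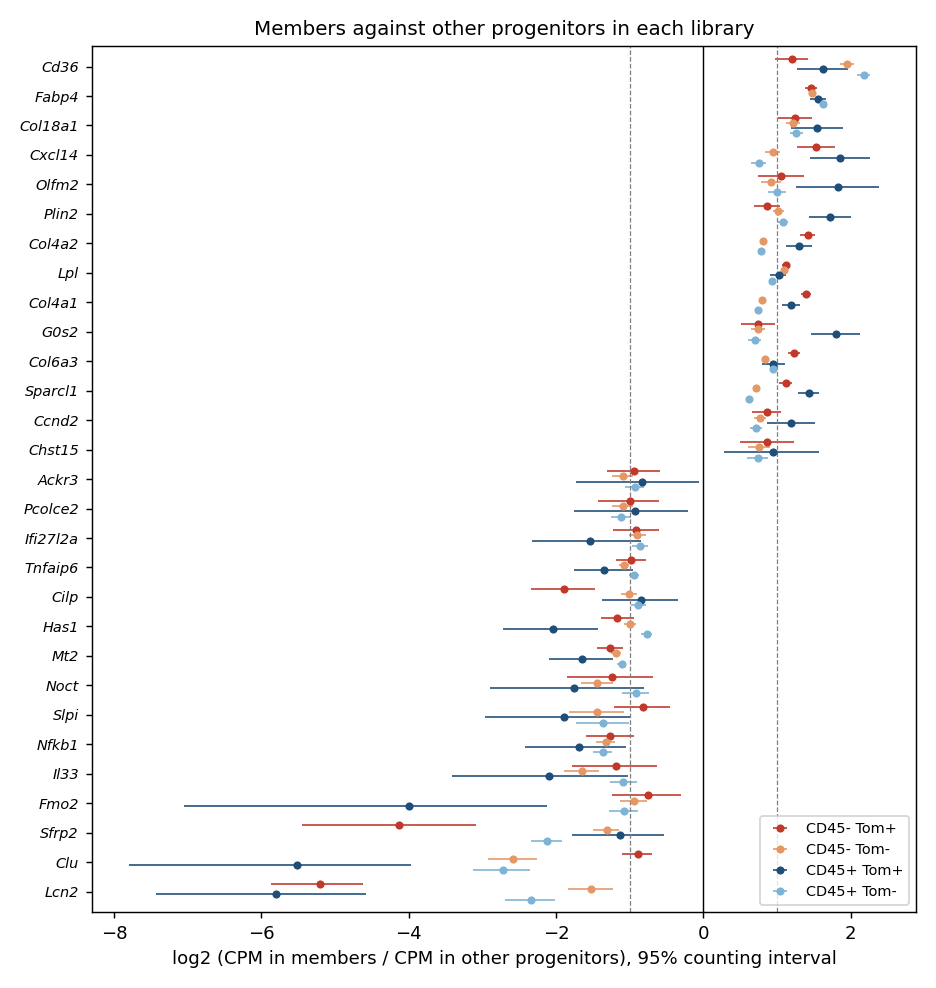
Log2 ratio of CPM in members to CPM in the other progenitors of the same library, for 14 of the 15 genes with the highest lowest-library ratio and the 15 with the lowest highest-library ratio; points are libraries, lines their 95% counting intervals, dashed lines a 2-fold difference. Fabp4 lies between 1.46 and 1.63 in all 4 libraries, while Lcn2 spreads from -1.52 to -5.81. In CD45+ Tom+ a single member held most of the Fabp4 UMIs.

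Further lipid genes were not 2-fold higher in every library, with Lpl just short of it. Lpl, which frees fatty acids from lipoproteins, stood at 4737 CPM in CD45- Tom+ members, 4946 in CD45- Tom-, 2764 in CD45+ Tom+ and 4564 in CD45+ Tom-, against 2181, 2325, 1364 and 2405 CPM in the other progenitors. It was higher in members of every library, by log2 ratios of 0.92 to 1.12. Plin2, which coats lipid droplets, stood at 404 to 458 CPM in members and 139 to 222 CPM in the others. Angptl4, an inhibitor of Lpl, was at 385 to 595 CPM in members and 257 to 345 CPM in the others. G0s2, an inhibitor of fat breakdown, was also higher in each library, with log2 ratios of 0.69 to 1.80. Scd1, the desaturase that makes unsaturated fatty acids, had log2 ratios of 0.57, 1.09, 0.00 and 1.41 and so did not differ in CD45+ Tom+.

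Among the fixed lists, the preadipocyte genes stood out upward. Of 15 tested, 10 were higher in members in all 4 libraries (Fabp4, Vcam1, Col15a1, Plin2, Cd36, Sparcl1, Col4a1, Col4a2, Lpl and Bmper) and 3 were lower in all 4 (Gpc3, Cd9 and Icam1), with a median log2 ratio of 0.85. Over all 2998 genes tested, 22.5% were higher and 12.7% lower in all 4 libraries, with a median of 0.03. Vcam1, an adhesion receptor, had small ratios of 0.20 to 0.57. Gpc3, a surface proteoglycan, had ratios of -0.08 to -1.14. Of 13 lipid uptake and storage genes tested, 6 were higher in all 4 libraries and Acly, which makes the acetyl-CoA for fatty acid synthesis, was lower, with a median of 0.07. Of 13 adipogenic transcription factors tested, 5 were higher in all 4 libraries (Klf2, Ebf1, Ebf2, Nr3c1 and Tcf7l2) and Cebpd was lower. The median of that list was 0.06. Ebf2, a factor that marks committed progenitors, had ratios of 0.26 to 0.46, and Cebpb and Klf4, which act early in differentiation, changed sign between libraries.

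Basement membrane genes were also mostly higher. Of 13 tested, 9 were higher in members in all 4 libraries (Col4a1, Col4a2, Col15a1, Col18a1, Hspg2, Lama2, Lamb1, Nid1 and Sparc) and Col4a5 was lower, with a median log2 ratio of 0.34. Col4a1, a chain of the main basement membrane collagen, stood at 2764 CPM in CD45- Tom+ members, 2608 in CD45- Tom-, 2147 in CD45+ Tom+ and 2686 in CD45+ Tom-. In the other progenitors it stood at 1055, 1509, 942 and 1603 CPM, so the ratio was larger in the Tom+ libraries (1.39 and 1.19) than in the Tom- libraries (0.79 and 0.75) through the level of the other cells. Col4a2 followed with ratios of 1.42, 0.81, 1.30 and 0.78. Of 31 interstitial matrix genes, 8 were higher and 5 lower in all 4 libraries and the median was -0.03. The highest of these was Col6a3, a microfibrillar collagen, with ratios of 0.84 to 1.23.

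Genes of interstitial progenitors and of inflammation were lower in members. Of 11 interstitial progenitor genes tested, 8 were lower in all 4 libraries (Ackr3, Cd55, Cd34, Anxa3, Creb5, Aldh1a3, Pcolce2 and Ly6c1), none was higher in all 4, and the median log2 ratio was -0.87. The rule itself removed Pi16+ and Dpp4+ cells, so this direction was set in part by the choice of cells. Of 13 complement and acute phase genes tested, 8 were lower in all 4 libraries (among them Cd55, Lcn2, Saa3, Clu, Cfb, C2 and C3) and none was higher, with a median of -0.63. The rule also placed the cells with over 4 UMIs of Il6 and Ptx3, genes of an inflammatory state, among the other progenitors. The choice of cells thus bears on this direction too, and its part was not tested. C3, the central complement protein, stood at 2822 CPM in CD45- Tom+ members, 4883 in CD45- Tom-, 3451 in CD45+ Tom+ and 4731 in CD45+ Tom-, against 4672, 7350, 5234 and 7083 CPM in the other progenitors. Its log2 ratios were close together, from -0.58 to -0.73.

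The 7 genes at least 2-fold lower in every library were Lcn2, Adgrg2, Sfrp2, Nfkb1, Mt2, Ly6g5c and Il33. Nfkb1, a subunit of the inflammatory factor NF-kB, stood at 99.3, 117, 66.4 and 111 CPM in members of the 4 libraries. In the other progenitors it stood at 238, 294, 215 and 285 CPM, above every member value. Against the cells with none of the 3 programmes its log2 ratio was only -1.05 to -0.26, and against the Ptx3/Il6 cells it was -2.63 to -1.77. Il33, an alarm cytokine of stromal cells, stood at 33.1, 34.5, 23.2 and 53.5 CPM in members and 75.1 to 114 CPM in the others. Mt2, a metallothionein, had ratios of -1.11 to -1.65 against all other progenitors but of -0.65 to 0.03 against the cells with none of the programmes. Lcn2, an iron-binding acute phase protein, stood at 14.8 to 27.2 CPM in members. In the other progenitors Lcn2 was at 1006 and 928 CPM in the Tom+ libraries but at 62.0 and 75.1 CPM in the Tom- libraries, so the size of its ratio was set by the other cells. Sfrp2, a secreted Wnt antagonist, stood at 8.28, 61.3, 79.6 and 39.7 CPM in members and 145 to 175 CPM in the others.

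Set against each class of other progenitors in turn, Lpl and Fabp4 differed least between members and Ptx3/Il6 cells. The log2 ratio of Lpl was 1.21 to 1.93 against Pi16/Dpp4 cells, 0.89 to 1.82 against cells with none of the programmes and 0.19 to 0.67 against Ptx3/Il6 cells. Fabp4 gave 2.20 to 2.74, 1.29 to 2.88 and 0.07 to 1.18 in the same order. Cxcl14, a chemokine, was higher than in Pi16/Dpp4 cells by 1.30 to 3.35 but lay between -0.14 and 0.42 against Ptx3/Il6 cells. Col6a3 was higher than in each of the 3 classes, by at least 0.61. Mrap itself was as high in Ptx3/Il6 cells as in members, with ratios of -0.74 to 0.23, whereas Fgf10 was 1.05 to 1.69 higher in members.

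Growth factor and melanocortin partners of the defining genes were examined next. The receptor Fgfr2, to which Fgf10 binds most strongly, was at 2.80 to 13.3 CPM in members, and Fgfr1 was at 195 CPM in CD45- Tom+, 248 in CD45- Tom-, 319 in CD45+ Tom+ and 230 in CD45+ Tom-. Fgf7, a close relative of Fgf10, was at 43.1 to 73.7 CPM with log2 ratios of 0.06 to 0.28 against the other progenitors. Spry1, a feedback inhibitor of FGF signalling, had ratios of 0.99, 0.40, 0.25 and 0.49, the interval in CD45+ Tom+ (-0.34 to 0.79) including 0. Of 5 FGF ligand, receptor and response genes tested, 2 were higher and 1 lower in all 4 libraries. Mc2r, the receptor that Mrap serves, was at 0 in CD45+ Tom+ and at 1.76 to 4.73 CPM in members of the other libraries, and Mrap2 was at 0 in members of all 4. None of the 8 melanocortin genes reached the level needed for the comparison. The list of 14 genes of choline and phospholipid turnover, the field of Enpp6, had 3 tested genes, none higher and 1 lower in all 4 libraries.

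Promoter windows of the called genes were searched for short motifs as a description. The RefSeq table held 2 of the 4 higher and 6 of the 7 lower genes, and 6 motifs were searched on both strands in the 250 bases before the start. TTGCNNAA, a form of the C/EBP site, occurred in 9.56% of 32851 promoters and in 3 of the 6 lower genes, Lcn2, Mt2 and Sfrp2. AGGTCA, to which nuclear receptors such as Pparg bind, occurred in 4607 of the 32851 promoters, in Cd36 among the 2 higher genes and in none of the 6 lower genes. The PPAR direct repeat, which holds AGGTCA and so overlaps it, the NF-kB motif, CCCNNGGG (EBF) and TATAAA occurred in 0.0335%, 1.41%, 11.8% and 12.4% of promoters. Among the 6 lower genes CCCNNGGG was found in Adgrg2 and Mt2, TATAAA in Il33, and the other 2 in none. None of these 4 was found in the higher genes, and none of the 6 in the windows of Fgf10 and Enpp6. The 4 matches of the first 2 motifs are shown with flanking bases on the gene's strand and the motif in capitals.
Lcn2, chr2:32387932-32387971, minus strand: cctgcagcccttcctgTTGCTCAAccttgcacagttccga
Sfrp2, chr3:83766260-83766299, plus strand: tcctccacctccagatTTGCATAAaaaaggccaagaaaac
Mt2, chr8:94172590-94172617, plus strand: gcaaaaagagggccgcTTGCAGAAttcg
Cd36, chr5:17836103-17836140, minus strand: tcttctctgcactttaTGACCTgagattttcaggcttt

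Levels of several preadipocyte genes were followed over the UMIs of the 3 defining genes in the Tom- libraries. The Tom+ libraries had 2 to 14 members in a bin, and Fabp4 there was at 2783 CPM in CD45- Tom+ but at 719 CPM in CD45+ Tom+ in the cells with 5 or more UMIs. In CD45- Tom-, Lpl stood at 1828 CPM in cells with 0 UMIs of the 3 genes, 2623 with 1, 3691 with 2, 5054 with 3 to 4 and 5620 with 5 or more. In CD45+ Tom- it stood at 2267, 2950, 3276, 3940 and 5726 CPM. The cells with 0 or 1 UMI are those with none of the programmes. Plin2 rose later, from 193, 241 and 250 CPM at 0, 1 and 2 UMIs to 393 and 549 CPM in CD45- Tom-, and from 212, 256 and 243 to 365 and 630 CPM in CD45+ Tom-. Cd36 reached 512 and 567 CPM only in the cells with 5 or more UMIs, against 76.0 and 53.8 CPM at 0 UMIs. Pparg did not rise throughout, at 18.9, 20.6, 33.5, 43.9 and 42.3 CPM in CD45- Tom- and 20.1, 37.1, 44.3, 33.5 and 35.2 CPM in CD45+ Tom-. Nfkb1 went the other way, from 185 and 142 CPM at 0 UMIs to 115 and 104 CPM at 5 or more. Depth rose along the same axis, from median UMI counts of 15467 and 17667 per cell at 0 UMIs to 23223.5 and 29612 at 5 or more, and its part in the trend was not tested.

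**Figure D3:**
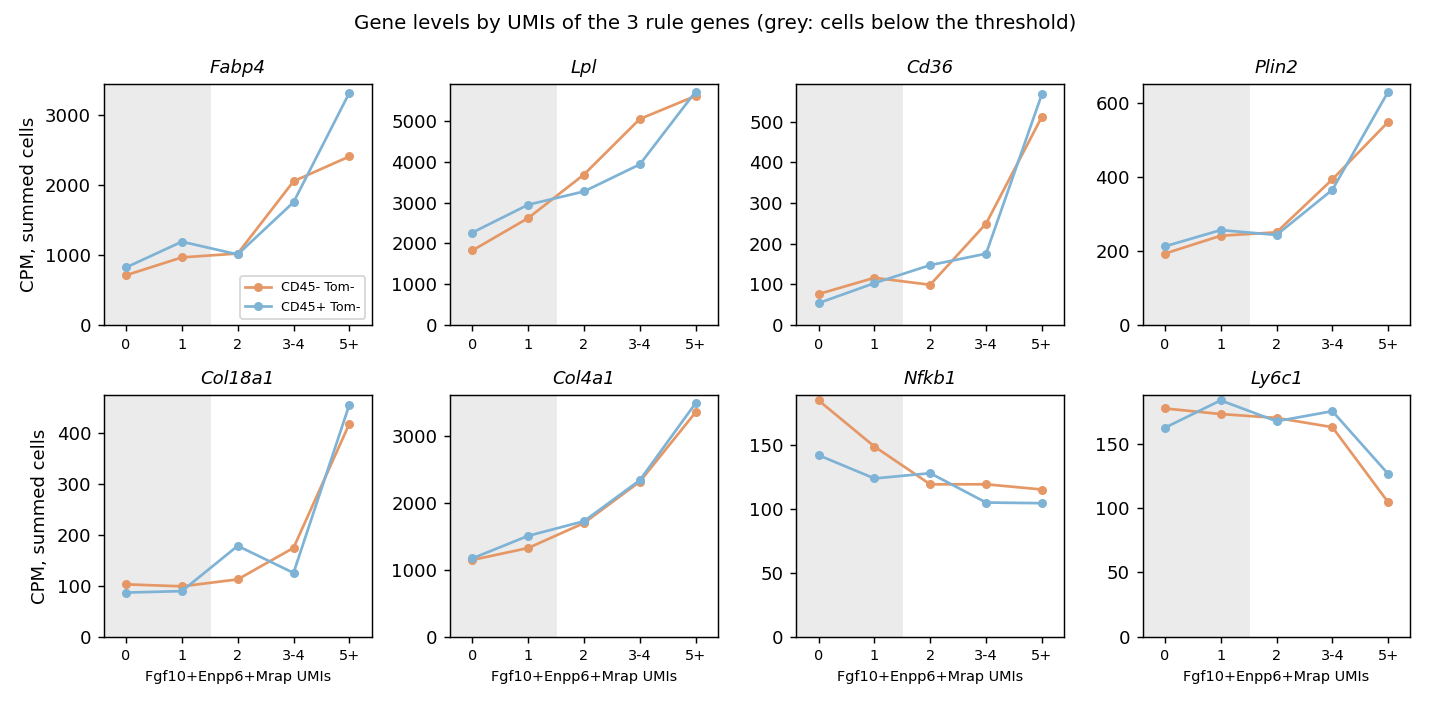
CPM of 8 genes in summed cells, by the number of Fgf10, Enpp6 and Mrap UMIs per cell, for both Tom- libraries; the grey area marks cells below the threshold. Lpl rises from 1828 to 5620 CPM and from 2267 to 5726 CPM across the 5 bins, while Nfkb1 falls from 185 to 115 CPM and from 142 to 104 CPM.

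Members with and without each defining gene were then compared within the Tom- libraries, a comparison chosen after the data were seen. A member without 1 of the genes must hold the others, so the groups are not independent of the rule. For Fgf10, 126 members with and 66 without were compared in CD45- Tom-, and 129 and 69 in CD45+ Tom-. Of 3019 genes, 19 were at least 1.5-fold higher in members with Fgf10 in both libraries (0.629%) and 38 lower (1.26%). For Enpp6, 3 of 3013 genes were higher (0.0996%) and 11 lower (0.365%). For Mrap, 16 of 3006 were higher (0.532%) and 14 lower (0.466%). In CD45- Tom- and CD45+ Tom-, members with Fgf10 had median UMI counts of 22788 and 25006, against 19119.5 and 21009 without. With Mrap the medians were 23651 and 25868, against 19372 and 21362 without. With Enpp6 they were 20967.5 and 22788.5, against 21885.5 and 25531 without. The part of depth in these counts of genes was not tested.

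Genes higher with Fgf10 included Col18a1 of the basement membrane list and Cd36 of the preadipocyte list, while Gpc3 of the preadipocyte list was lower. Col18a1 had log2 ratios of 1.48 and 1.65 in CD45- Tom- and CD45+ Tom-, and Cd36 of 0.82 and 1.71. Postn, a matrix protein of activated fibroblasts, had ratios of 1.39 and 0.66, Col6a3 of 0.71 and 0.92, and Dusp6, a phosphatase induced by FGF signalling, of 0.68 and 0.81. Genes lower with Fgf10 included Cilp (-0.99 and -1.89), Sfrp1 (-0.94 and -1.52), Gpc3 (-0.79 and -1.04), Agt (-1.01 and -1.48), the precursor of angiotensin, and Aldh1a1 and Aldh1a3 (-1.12 and -0.69, -0.97 and -1.24), enzymes that make retinoic acid. Cebpd was also lower, at -0.85 and -0.67.

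Members with Mrap differed in another set of genes. Ptgs2, the inducible cyclooxygenase, had log2 ratios of 1.37 and 1.27, Hilpda, a lipid droplet protein, of 1.35 and 0.69, and Scd1 of 0.90 and 0.97. Tagln, a contractile protein, had ratios of 3.12 and 3.20, but 45.3% and 23.8% of its UMIs in those members came from 1 cell in each library. Apod, a lipocalin, was lower at -0.88 and -1.39, Ly6c1 at -0.71 and -0.76, and Inmt, a methyltransferase, at -1.04 and -1.05. The 3 genes higher with Enpp6 were Mbd1 (0.83 and 0.97), Id2 (0.76 and 0.69), an inhibitor of differentiation factors, and Tppp3 (0.59 and 0.76). Mmp3, a matrix-degrading protease, and Sfrp2 were lower with Enpp6, at -1.85 and -0.71 and at -1.06 and -0.74. Members with Mrap had less Tppp3, at -1.14 and -1.07, and more Mmp3, at 0.95 and 0.92.

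Between Tom+ and Tom- members, most genes differed little in both pairs. Of 3004 genes compared, 15 were at least 1.5-fold higher in Tom+ in both pairs (0.499%) and 16 at least 1.5-fold lower (0.533%). Within a pair, 175 genes passed that fold in CD45- and 375 in CD45+, with standard deviations of the log2 ratio across genes of 0.35 and 0.42. Between the Tom- libraries, which hold the most members, 22 genes passed it and the standard deviation was 0.16. Between the Tom+ libraries, with 33 and 11 members, 537 genes passed and it was 0.50. The spread of the Tom+ libraries against each other was thus wider than that of either Tom+ to Tom- comparison.

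**Figure D4:**
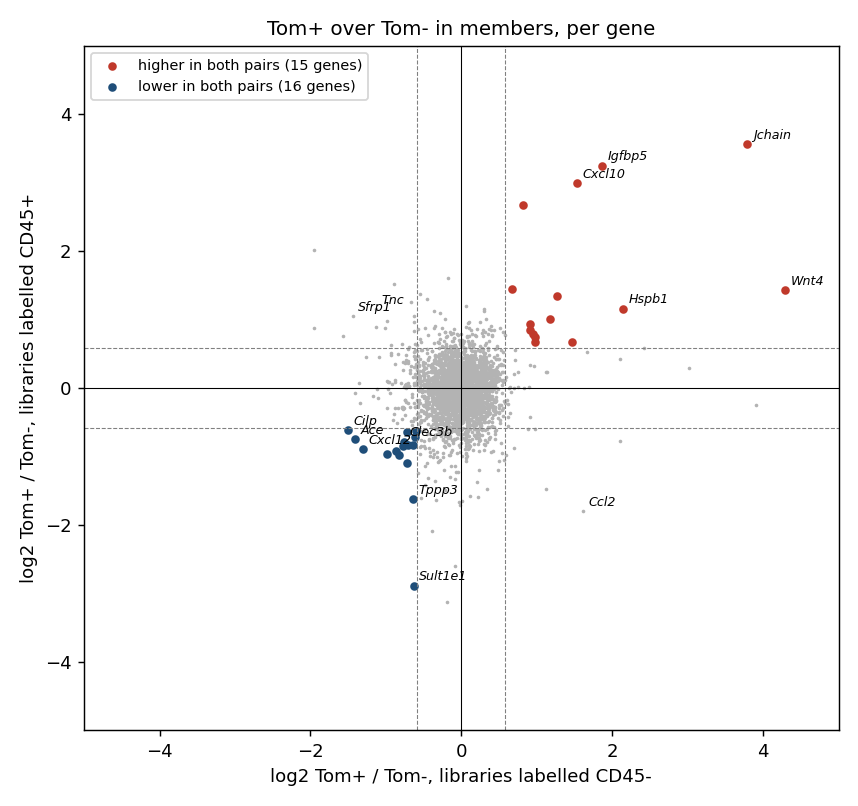
Log2 ratio of Tom+ to Tom- CPM in members for 3004 genes, in the CD45- pair (horizontal) and the CD45+ pair (vertical); dashed lines mark 1.5-fold, and coloured points are the 15 genes higher and 16 lower in both pairs. Of the coloured points, Jchain (3.79 and 3.56) lies highest, Wnt4 (4.30 and 1.43) farthest right, Cilp, Ace and Cxcl12 farthest left, and Sult1e1 lowest.

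Genes lower in Tom+ members rested less on single cells, by the median, than the higher genes described below. The largest share of a gene's Tom+ UMIs in 1 cell had a median of 30.8% over the 16 genes and reached 66.7% for Gdf10 in CD45+ Tom+. With each cell given equal weight, many of the 16 genes were not called again, as counted in the last section. Cxcl12, the chemokine by which stromal cells hold leukocytes and progenitors in place, stood at 365 CPM in CD45- Tom+ and 902 in CD45- Tom-, and at 514 CPM in CD45+ Tom+ and 953 in CD45+ Tom-. Both Tom+ values lay below both Tom- values. The log2 ratios were -1.30 (-1.48 to -1.14) and -0.89 (-1.13 to -0.66), and at least 90.9% of members in each library held Cxcl12. In leukocytes Cxcl12 was at 6.09 to 25.7 CPM. Clec3b, tetranectin, a secreted plasminogen-binding protein, stood at 570 and 965 CPM in the CD45- pair and 561 and 965 CPM in the CD45+ pair, with ratios of -0.76 (-0.90 to -0.62) and -0.78 (-1.01 to -0.56). Txnip, which holds back glucose uptake and thioredoxin, stood at 700 and 1072 CPM and at 647 and 1058 CPM, with ratios of -0.62 and -0.71, the latter turning to 0.23 after thinning to 5000 UMIs. Both Tom+ levels of each of these genes were below both Tom- levels.

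Ace, the angiotensin-converting enzyme, stood at 36.6 CPM in CD45- Tom+ against 97.0 in CD45- Tom-, and at 63.0 in CD45+ Tom+ against 106 in CD45+ Tom-. Its log2 ratios were -1.40 (-1.98 to -0.88) and -0.75 (-1.49 to -0.09), from 31 and 19 UMIs in Tom+. After thinning to 5000 UMIs the direction turned for Ace, to 0.22 and 0.041, and for Mat2a, to 0.25 and 0.10. In 1 pair it also turned for Herc1, at 0.20, and Tagln, at 2.02, and for Cilp with a threshold of 3 UMIs, at 0.18. Anpep, another surface peptidase, had ratios of -0.71 and -0.83. Gdf10, a ligand of the TGF-beta family that is listed among adipose regulatory cell genes, stood at 72.1 and 128 CPM and at 59.7 and 118 CPM, with ratios of -0.83 and -0.98. Deptor, an inhibitor of mTOR, had ratios of -0.87 and -0.91, Thbd, thrombomodulin, of -0.72 and -1.10, and Galnt15, a glycosyltransferase, of -0.98 and -0.97. Cilp, a matrix protein that binds TGF-beta, stood at 55.6 and 157 CPM and at 116 and 178 CPM, with 48.9% and 54.3% of its Tom+ UMIs in 1 cell. Sult1e1, the estrogen sulfotransferase, had ratios of -0.63 and -2.89, the latter from 4 UMIs. Mat2a, which makes the methyl donor S-adenosylmethionine, had ratios of -0.64 and -0.84, and Tppp3, a tubulin-binding protein, of -0.64 and -1.62. The other 3 genes were Ces2g, Herc1 and Tagln, and for Ces2g and Herc1 the interval in the CD45+ pair included 0.

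Many genes higher in Tom+ members had most of their Tom+ UMIs in 1 cell. The largest share in 1 cell had a median of 59.3% over the 15 genes and a range of 14.1% to 94.5%. Igfbp5, an IGF-binding protein listed among senescence genes, stood at 167 CPM in CD45- Tom+ against 45.7 in CD45- Tom-, and at 196 in CD45+ Tom+ against 20.6 in CD45+ Tom-. Of these Tom+ UMIs, 83.0% and 89.8% came from 1 cell, and without it the log2 ratio went from 1.87 to -0.10 and from 3.25 to 0.67. Saa3, an acute phase protein, had ratios of 1.18 and 1.01, and without the top cell of -0.30 and -2.31. Wnt4, a secreted Wnt ligand, stood at 238 CPM against 12.1 and at 79.6 against 29.5. It was found in 6 of 33 CD45- Tom+ members, and without the top cell its ratios were 4.37 and 0.69. Cxcl10, a chemokine induced by interferon, kept ratios of 1.87 and 2.38 without the top cell, from 29 and 49 UMIs with it.

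When the cell with the most UMIs of the gene was left out of each library, an alternative added after seeing the data, 3 of the 15 higher and 15 of the 16 lower genes still passed both the fold and the filter of 50 CPM. The 3 were Jchain, Hspb1 and Tgfbi. Wnt4 and Cxcl10 stayed past 1.5-fold in both pairs but fell under the filter, and Tagln was the lower gene that no longer passed. Leaving out a cell takes more from a small library, and the median log2 ratio of all genes then moved to -0.08 and -0.20, so the lower genes gained from it. Hspb1, a small heat shock protein, stood at 546 CPM in CD45- Tom+ against 123 in CD45- Tom-, and at 312 in CD45+ Tom+ against 140 in CD45+ Tom-. Its ratios were 2.15 and 1.16, and 1.02 and 0.81 without the top cell. Tgfbi, a matrix protein induced by TGF-beta, stood at 72.1 against 38.3 CPM and at 92.9 against 48.5 CPM, with ratios of 0.91 and 0.94 on 61 and 28 Tom+ UMIs, and 0.73 and 0.81 without the top cell. After thinning to 5000 UMIs, which left 9 and 5 Tom+ members, both directions turned, to -0.95 and -0.15 for Hspb1 and to -0.29 and -0.24 for Tgfbi. With a threshold of 3 UMIs Hspb1 had -0.19 in the CD45- pair. The other higher genes, Igfbp5, Saa3, Cd55, Ctgf, Csrp2, Cxcl2, Ildr2, Tmx4, Trib1 and Sec11c, fell under 1.5-fold in at least 1 pair.

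**Figure D5:**
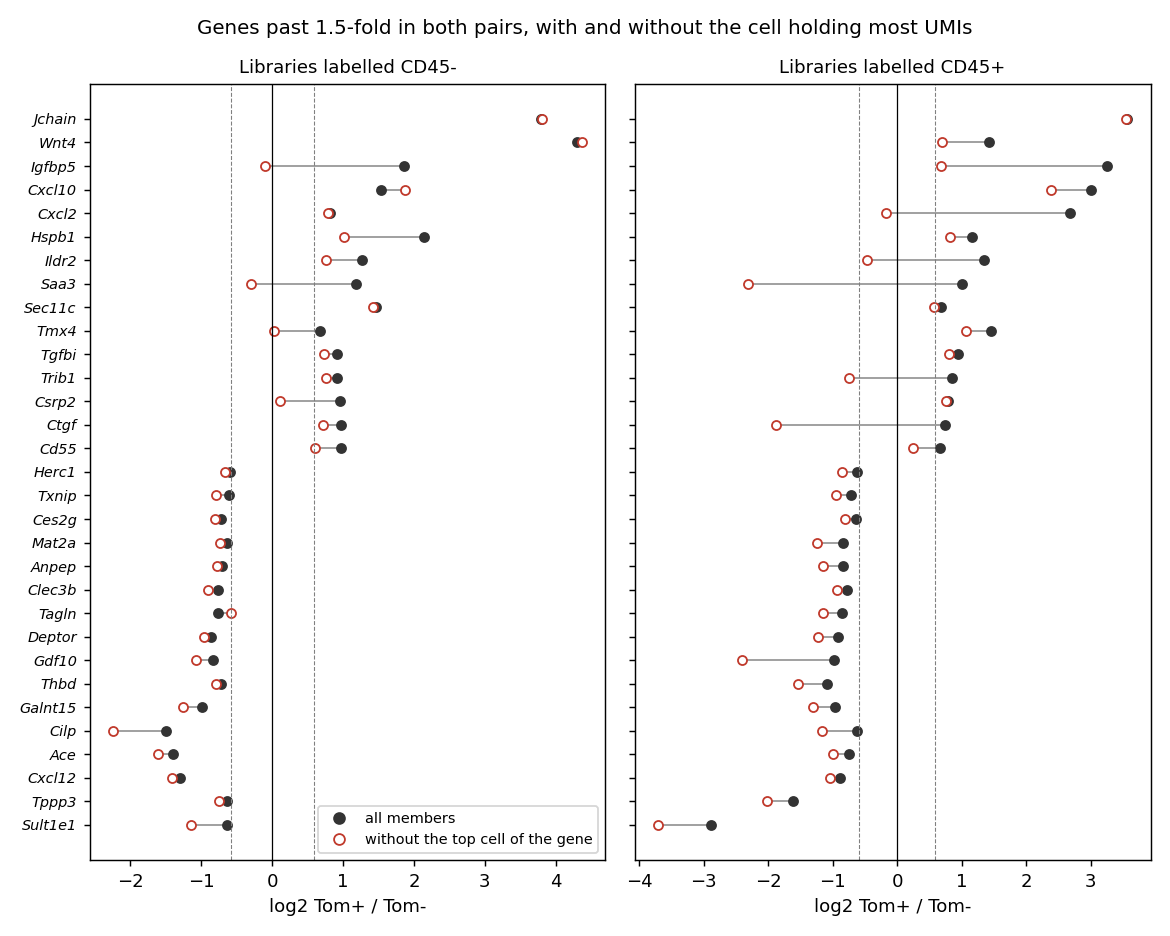
Log2 ratio of Tom+ to Tom- CPM for the 31 genes past 1.5-fold in both pairs, with all members (filled) and without the cell that holds the most UMIs of the gene in each library (open); dashed lines mark 1.5-fold. Igfbp5 moves from 1.87 to -0.10 and from 3.25 to 0.67, whereas Cxcl12 stays at -1.41 and -1.04.

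Jchain belongs to antibody secretion. Jchain, which joins antibody units, stood at 1200 CPM in CD45- Tom+ against 86.6 in CD45- Tom-, and at 826 in CD45+ Tom+ against 69.9 in CD45+ Tom-. It was present in 100% of Tom+ members, and leukocytes of the Tom+ libraries held 15326 and 16650 CPM against 1871 and 2323 CPM in the Tom- libraries. The 9 markers of plasma cells summed to 20112 and 13208 CPM in Tom+ members against 1550 and 1528 CPM in Tom- members. Their part in other differences was not tested, but with immunoglobulin genes left out of the total, 17 genes were higher and 15 lower, the 15 higher ones included.

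Markers of other cells also differed between members of the 4 libraries. The 5 markers of B cells summed to 332 and 73.0 CPM in the CD45- and CD45+ Tom+ libraries against 44.0 and 56.5 CPM in Tom-, and the 6 markers of mast cells to 81.6 and 43.1 CPM against at most 17.8 CPM. The 7 markers of T cells summed to 63.8 and 19.9 against 9.01 and 8.19 CPM. Those of neutrophils summed to 7.09 and 0 against 11.9 and 8.78 CPM, and those of endothelial cells to 57.9 and 9.95 against 35.4 and 34.9 CPM. Mesothelial markers summed to 187, 148, 149 and 147 CPM in library order. Mural markers summed to 277, 328, 202 and 320 CPM, so that both Tom+ sums lay below both Tom- sums, and Tagln, a called gene, is one of them. The part of these cells in the Tom+ to Tom- values was not tested.

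The preadipocyte genes, most of them higher in members than in the other progenitors, did not differ between Tom+ and Tom- members in a repeated way. Lpl and Fabp4, as described above, differed less between members and Ptx3/Il6 cells than between members and the other classes. Of 15 preadipocyte genes tested, none passed 1.5-fold in both pairs, and the median log2 ratios were -0.01 and 0.01, against -0.01 and -0.02 over all genes. Fabp4 had ratios of 0.09 (0.01 to 0.16) and 0.34 (0.24 to 0.44), Cd36 of -0.37 (-0.59 to -0.16) and -0.11 (-0.42 to 0.19), and Plin2 of -0.07 (-0.24 to 0.10) and 0.02 (-0.24 to 0.27). The second Fabp4 ratio rests mostly on a single CD45+ Tom+ member, which held most of the Fabp4 UMIs there. Lpl had -0.06 (-0.11 to -0.01) in the CD45- pair and -0.72 (-0.83 to -0.62) in the CD45+ pair, where 11 members stood behind the Tom+ value. Pparg had 0.11 (-0.44 to 0.63) and -0.48 (-1.72 to 0.52). Of 14 adipogenic transcription factors tested, none passed the fold, and the medians were -0.23 and -0.22. Cebpa, which acts with Pparg late in differentiation, had ratios of -0.54 (-1.05 to -0.07) and -0.87 (-1.83 to -0.05), on 41 and 12 Tom+ UMIs.

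The lists tied to the study's questions moved little. Of 17 senescence genes tested, 2 were higher (Igfbp5 and Cxcl2) and none lower in both pairs, against 0.499% and 0.533% of all genes, with medians of 0.04 and 0.20. In CD45+ Tom+ 1 cell held 89.8% of the Igfbp5 and 89.1% of the Cxcl2 UMIs, and neither call remained without the top cell. Cdkn1a, the cell cycle inhibitor p21, stood at 118 and 109 CPM in the CD45- pair and 166 and 122 CPM in the CD45+ pair, with ratios of 0.11 (-0.21 to 0.42) and 0.45 (0.00 to 0.87). Of 23 TGF-beta and BMP genes tested, Tgfbi was higher and none was lower, with medians of -0.03 and 0.05. Of 31 interstitial matrix genes, none passed in both pairs, with medians of -0.19 and 0.02. The medians of the 13 mitochondrially encoded genes had opposite signs, at -0.18 and 0.10, as had those of the 19 dissociation stress genes, at -0.08 and 0.12. Of 12 complement and acute phase genes, Saa3 and Cd55 were higher and none lower, with medians of -0.28 and -0.33. C3 had ratios of -0.79 (-0.85 to -0.73) and -0.46 (-0.55 to -0.37), the second short of 1.5-fold.

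The remaining lists gave few calls. Of 14 chemokines and cytokines tested, Cxcl10 was higher and Cxcl12 lower. Of 5 adipose regulatory cell genes Gdf10 was lower, of 11 interstitial progenitor genes Cd55 was higher, and of 5 Wnt genes Wnt4 was higher. None of 13 lipid uptake and storage, 13 basement membrane, 8 insulin and IGF, 5 FGF and 2 choline and phospholipid genes passed in both pairs.

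The same contrasts in the other progenitors are given beside those of members, with the difference not tested and the libraries shared. In cells with none of the programmes, 11 of the 16 lower genes passed 1.5-fold in both pairs (Ace, Anpep, Cilp, Clec3b, Cxcl12, Deptor, Galnt15, Gdf10, Sult1e1, Tppp3 and Txnip), as did 8.82% of the 3004 genes. In those cells Cxcl12 had log2 ratios of -1.52 and -1.05, Clec3b of -1.52 and -1.10 and Gdf10 of -1.54 and -1.43. In all other progenitors together, 5 of the 16 passed (Cilp, Clec3b, Gdf10, Sult1e1 and Tppp3), as did 1.46% of the 3004 genes. Of the 15 higher genes, 7 passed in the cells with none of the programmes, beside 1.36% of all genes, Wnt4 among them with 1.68 and 1.99. In all other progenitors 3 of the 15 passed (Jchain, Sec11c and Wnt4), beside 0.533% of all genes. Tgfbi had 0.10 and -0.48 in the cells with none of the programmes and 0.13 and 0.36 in all other progenitors.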

How the data were processed

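Single cells of the stromal vascular fraction were profiled with 10x Genomics 3' chemistry in 4 libraries. The deposited files hold UMI counts per gene and barcode, which the authors made with Cell Ranger 3.0.2 on mm10, per the submitters' processing notes, and the gene table has a tdTomato row. Here, barcodes with over 1000 and under 7000 genes and a mitochondrial share under 8% were kept, and the member rule was applied to whole counts. The members and gene lists were chosen with earlier results of these data known.

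Counts were summed over the members of a library and scaled by its total UMIs. Only genes whose mean reached 50 CPM entered a comparison, without immunoglobulin genes, tdTomato and the 13 genes of the rule. With 1 library per group no test was run, and called means past the fold: 1.5-fold in both pairs for Tom+ against Tom-, and 2-fold in all 4 libraries for members against other progenitors. Log2 ratios carry conditional exact Poisson 95% intervals and shares Clopper-Pearson intervals. The study's own test between cells was not used.

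Named genes were the measured genes of the fixed lists, the 12 highest and 12 lowest by mean Tom+ to Tom- ratio with the same sign in both pairs, the 15 highest and 15 lowest against other progenitors, and the genes of the rule. Called genes outside these, and those of the comparison with and without a defining gene, were named after their values were seen. Some genes that the rule names are not reported here. Doublets were kept. As an alternative, the highest Scrublet scores were left out at 0.8% of cells per 1000 barcodes, which marked 1, 10, 0 and 5 members. Other alternatives were a threshold of 3 UMIs, looser barcode filters, thinning to 5000 UMIs, shared barcodes left out, equal weight per cell, TMM scaling, other filters and other folds. Python 3.11.15 with numpy 2.4.6, scipy 1.17.1, pandas 2.3.3, scanpy 1.11.5 and matplotlib 3.10.9 was used, with edgeR 4.0.16 in R 4.3.3 for TMM factors only. The scripts were tested on simulated data.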

Additional observations from a re-analysis of the deposited data

Results flagged for a closer look

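In 7 of the 212 list genes tested, the log2 ratio of Tom+ to Tom- members passed 1.5-fold in both pairs in opposite directions. Only genes whose counting interval excluded equal levels in both pairs were counted. The difference between pairs was not tested. With 1 library on each side, 94 of the 212 genes had opposite signs. The ratios in the CD45- and CD45+ pairs were -1.96 and 0.88 for Ltbp2, -1.44 and 1.05 for Sfrp1, -1.13 and 1.15 for Tnc, and -0.89 and 1.52 for Hspa1a. They were -0.66 and 1.26 for Mfap4, -0.63 and 0.97 for Col14a1, and 1.62 and -1.80 for Ccl2. In the CD45+ Tom+ library, which has 11 members, 1 cell held 92.9% of the Tnc, 76.0% of the Ltbp2, 72.9% of the Mfap4 and 69.4% of the Hspa1a UMIs. For Ccl2 that share was 56.0%, for Sfrp1 54.3% and for Col14a1 36.4%.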

How the results depend on the processing

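Of the 78 shares and counts recomputed under an alternative, 45 stayed close to the reported value and 33 moved. Of the 907 values of single genes, 744 stayed close, 136 moved and 27 changed sign. No paired analysis was possible because each group has 1 library and no test was run. Leaving out the top cell, scaling without immunoglobulin genes and using the Tom- libraries alone were chosen after seeing the data. The causes of the shifts were not tested.

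With a threshold of 3 UMIs the member share of progenitors was 8.61% in CD45- Tom+, 8.61% in CD45- Tom- and 8.43% in CD45+ Tom-. Thinned to 5000 UMIs these shares were 4.39%, 6.93% and 6.08%. The CD45+ Tom+ share, from 11 members as reported, stayed within its wide interval of 4.48 to 15.2 under both settings. The count of genes higher in Tom+ members, 15 as reported, was 46 with looser barcode filters, 42 with a filter of 20 CPM, 506 with no filter, 218 after thinning, 7 at 2-fold and 3 without the top cell. The count of lower genes, 16 as reported, was 29, 83, 2090, 254, 0 and 56 under the same settings, and 26 with a threshold of 3 UMIs. Against other progenitors, the 4 higher genes became 7 with a threshold of 3 UMIs, 2 with looser barcode filters, 10 with a filter of 20 CPM, 25 with no filter and 18 at 1.5-fold. The 7 lower genes became 15 with a threshold of 3 UMIs, 14 after thinning, 12 with a filter of 20 CPM, 446 with no filter, 31 at 1.5-fold and 32 in the Tom- libraries alone. Without the top cell, 30 genes were higher with Fgf10, 5 higher with Enpp6 and 7 lower with Enpp6.

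Log2 ratios of Tom+ to Tom- members that changed sign are given for the named pair. With a threshold of 3 UMIs they were -0.037 for Cxcl2, -0.19 for Hspb1, -5.05 for Saa3 and -1.03 for Csrp2 in CD45-, and 0.18 for Cilp and -1.90 for Ctgf in CD45+. With looser barcode filters Tagln had 0.10 and 0.97. After thinning, the CD45- and CD45+ ratios were -0.95 and -0.15 for Hspb1, 0.22 and 0.041 for Ace, 0.25 and 0.10 for Mat2a, and -0.29 and -0.24 for Tgfbi. Thinning also gave -1.53 for Csrp2 and 2.02 for Tagln in CD45-, and 0.23 for Txnip and 0.20 for Herc1 in CD45+. Thinned Tom+ values rest on 9 and 5 members. Without the top cell, the ratios were -0.10 for Igfbp5 in CD45-, -0.30 and -2.31 for Saa3, and, in CD45+, -0.17 for Cxcl2, -0.47 for Ildr2, -1.89 for Ctgf and -0.75 for Trib1. With TMM scaling all 15 higher and all 16 lower genes were called again, and with each cell given equal weight 9 and 8 of them were.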
